A study of Homo sapiens with 2 samples.

Results

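The genes described here are the D and E cyclins CCND1, CCND2, CCND3, CCNE1 and CCNE2, the kinases CDK2, CDK4 and CDK6 that they activate, the kinase inhibitor gene CDKN1B and the retinoblastoma gene RB1. They were taken by gene name from the deposited table, where each of the 10 names stood in 1 row, out of 23321 gene symbols in all. The table compares 2 RNA-seq libraries of AGS, a human cell line derived from a gastric adenocarcinoma. In the GGT7 library the cells had been stably transfected with a plasmid for ectopic expression of GGT7, which encodes a protein of the gamma-glutamyltransferase family. In the control library they carried a negative control plasmid and are labelled WT. Both were taken at 2 weeks from cells grown in serum-supplemented DMEM. The sources used here do not give the promoter of the plasmid, nor whether the cells were 1 clone or a pool.

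Cyclins are the regulatory subunits that switch on cyclin-dependent kinases (CDKs). In G1, D cyclins activate CDK4 and CDK6 and E cyclins activate CDK2, and these kinases phosphorylate RB1, the pocket protein that otherwise holds the E2F transcription factors inactive. INK4 proteins block CDK4 and CDK6, CIP/KIP proteins such as p27 (CDKN1B) restrain CDK2, and once E2F factors are released they drive the genes of DNA replication. Gains of CCNE1, CCND1 and CDK6 are well known in gastric cancer.

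The libraries held 10289206 counts (GGT7) and 13482913 counts (control), 1 library per group. So no difference below is checked against replicates, and p-values are not given. Levels are FPKM, counts scaled by gene length and library total. Intervals are exact 95% counting intervals. They hold counting error and nothing else. Reads lacking molecular identifiers may stem from the same molecule, so the intervals may be too narrow even for that error. In bulk RNA, a difference in the number of cells that express a gene and one in RNA per cell cannot be told apart. Differences between the libraries were computed as log2 of (FPKM + 1), GGT7 minus control, while folds are plain FPKM ratios. GGT7 itself was at 12.2 FPKM in the GGT7 library and 1.78 FPKM in the control library. The epithelial keratin genes KRT8 (45.4 and 70.0 FPKM in the GGT7 and control libraries) and KRT18 (117 and 111 FPKM) were abundant, while CDH1 was under 1 FPKM in both. Of 10 fibroblast, endothelial and leukocyte markers in the table, 8 were under 1 FPKM in both libraries. The exceptions were COL1A1 (1.60 FPKM in GGT7, 2.46 FPKM in control) and CDH5 (1.84 FPKM in GGT7, 2.14 FPKM in control).

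One of the 10 genes stood apart between the libraries. CDK6 was 2.02-fold higher in the GGT7 library, and the other 8 genes that reached 1 FPKM in at least one library lay between 0.869-fold and 1.13-fold of the control. CCND2 did not reach 1 FPKM. Of the 9 genes that did, 1 was higher in GGT7 by at least 1.5-fold on the log2(FPKM + 1) scale, beside 3.9% of all 14215 genes at 1 FPKM or more. None of the 9 was lower by at least 1.5-fold, beside 4.97% of all genes. None of the 9 reached 2-fold on that scale, CDK6 included, as the pseudocount of 1 brings it to a log2 difference of 0.98; over all genes 0.858% were higher by that much and 1.16% lower. For 3 of the 9 genes, CDK6, CCND1 and CCND3, the whole counting interval was above 1, beside 19.6% of all genes. For 0 of the 9 it was wholly below 1, beside 25.4% of all genes. The 9 genes had a median log2 difference of 0.06, beside -0.03 over all genes. Of the 9, 7 were above 0 and 2 below, and over all genes 45.2% were above 0 (50.6% under upper quartile scaling). All counts of genes past or within 1.5-fold below are on the log2(FPKM + 1) scale, so a low gene can have a larger FPKM ratio and still count as within.

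**Figure D1:**
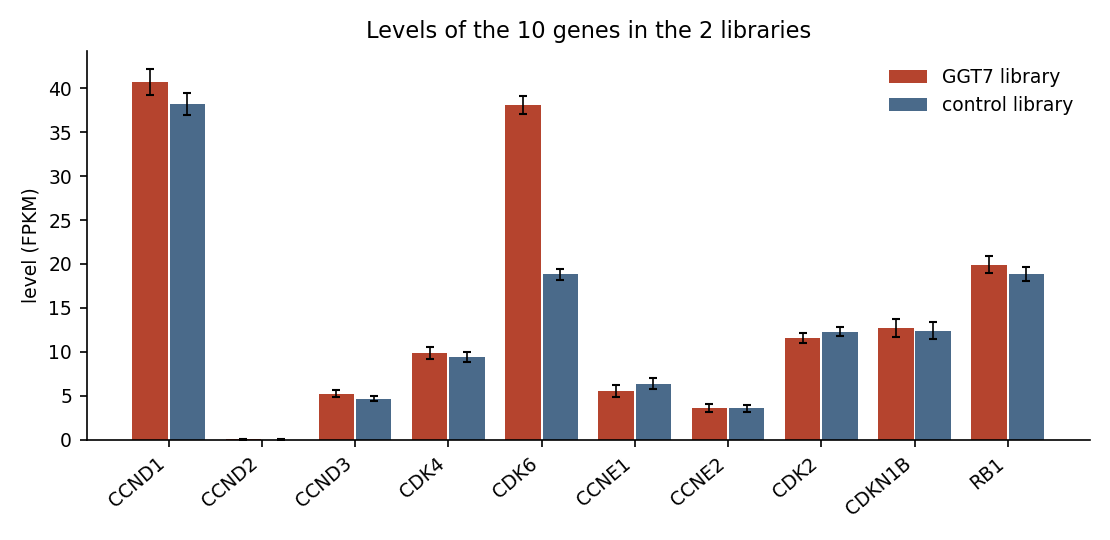
Level in FPKM (vertical axis) of the 10 genes in the GGT7 library (left bar of each pair) and the control library (right bar); error bars are exact 95% Poisson counting intervals of 1 library each. The CDK6 bars stand at 38.1 FPKM (GGT7) and 18.8 FPKM (control), while the paired bars of the other genes are close to each other and CCND2 is at or near 0.

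CDK6 encodes one of the 2 kinases that pair with D cyclins. It lies on the minus strand of chromosome 7 (ENSG00000105810, GRCh38, 92604921 to 92836594). It had 5326 counts in the GGT7 library and 3450 counts in the control library, so the smaller GGT7 library held more of its reads in absolute number. Its level was 38.1 FPKM (37.0 to 39.1) in GGT7 and 18.8 FPKM (18.2 to 19.5) in control, 2.02-fold higher with an interval of 1.94 to 2.11. The counting intervals of the libraries do not overlap. By log2 difference CDK6 ranked 131 of 14215 genes. Among the 1541 genes with a control level at least as high as that of CDK6, 7 had a log2 difference as large as that of CDK6 or larger, CDK6 among them.

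CDK4, the other partner of the D cyclins, lies on the minus strand of chromosome 12 (ENSG00000135446, 57747727 to 57756013). It was at 9.84 FPKM in GGT7 and 9.41 FPKM in control, from 759 and 951 counts, a ratio of 1.05 (0.949 to 1.15). The interval includes 1. Within a library the ratio of 2 genes does not depend on how libraries are scaled: there were 7.02 CDK6 counts for each CDK4 count in GGT7 and 3.63 in control, a 1.93-fold shift (1.74 to 2.15). The summed level of CDK4 and CDK6 was 47.9 FPKM in GGT7 and 28.2 FPKM in control, 1.70-fold higher, and CDK6 made up 79.5% of it in GGT7 and 66.7% in control. These shares rest on the gene lengths behind the deposited FPKM. With the exonic length of GENCODE 29 instead, CDK6 made up 64.5% in GGT7 and 48.4% in control, so which kinase is the more abundant in the control library depends on the length used, while the 1.93-fold shift of CDK6 against CDK4 does not. CDK4 shares 1369 exonic bases, 43.2% of its total, with TSPAN31 on the opposite strand, and the sources used here do not say whether reads were counted by strand. TSPAN31 was at 1.40 FPKM in GGT7 and 1.27 FPKM in control. For CDK6 the only overlap is 81 bases with an antisense gene that had 0 counts in GGT7 and 2 in control.

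The promoters of these kinases are shown because D cyclins share them and CDK6 differed past 1.5-fold while CDK4 did not, and because CDK4 is a known target of MYC, which binds the E-box. The windows run from 250 bases before to 50 bases after a RefSeq start on GRCh38.p14, minus strand, at chr7:92836524-92836823 for CDK6 and chr12:57752261-57752560 for CDK4. Capitals mark the E-box, CACGTG, which reads the same on both strands.
CDK6: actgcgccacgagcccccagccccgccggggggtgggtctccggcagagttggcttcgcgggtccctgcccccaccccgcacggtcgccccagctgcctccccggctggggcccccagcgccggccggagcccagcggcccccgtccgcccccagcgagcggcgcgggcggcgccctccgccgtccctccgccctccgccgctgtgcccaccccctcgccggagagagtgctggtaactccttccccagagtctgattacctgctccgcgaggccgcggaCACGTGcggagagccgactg
CDK4: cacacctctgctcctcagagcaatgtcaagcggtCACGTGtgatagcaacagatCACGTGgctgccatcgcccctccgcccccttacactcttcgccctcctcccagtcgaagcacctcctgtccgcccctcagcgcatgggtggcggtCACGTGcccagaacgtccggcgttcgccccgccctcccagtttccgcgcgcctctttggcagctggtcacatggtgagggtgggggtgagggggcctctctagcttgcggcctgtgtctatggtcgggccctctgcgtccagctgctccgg
The CDK6 window holds 1 E-box, just after the start, and the CDK4 window holds 3. The windows found for CCND3, CCNE1, CDKN1B and RB1 hold none. Of 35116 windows in the RefSeq table, 7.26% hold at least 1. That share covers windows of any GC content, while the CDK6 and CDK4 windows are 78.0% and 66.0% GC. E2F motifs (TTTCCCGC, TTTCGCGC, TTTGCCGC or TTTGGCGC, both strands) were in neither window and in 3.31% of all windows. The GC box GGGCGG, on either strand, was found 3 times in each and in 45% of all windows. A second CDK6 start in the table, at chr7:92833910-92834209, has none of these motifs. A match is a stretch of letters and does not show binding.

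CDK6 was also set against each of the other 8 genes at 1 FPKM or more, within libraries. In all 8 pairs the ratio of CDK6 to its partner was higher in GGT7, by 1.79-fold (1.61 to 1.99, against CCND3) at the lowest and by 2.33-fold (1.98 to 2.74, against CCNE1) at the highest. Against RB1, the substrate, it was 1.92-fold (1.77 to 2.07), and against CDKN1B 1.98-fold (1.75 to 2.23). These pairs share the counts of CDK6, so they are not separate observations of it.

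**Figure D2:**
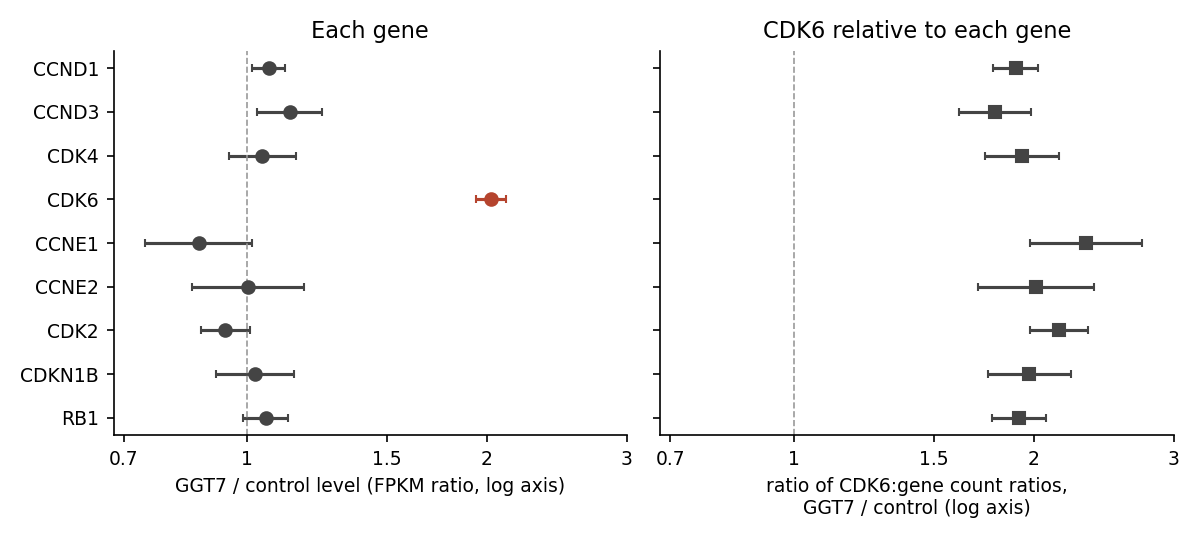
Left, ratio of the FPKM level in GGT7 to that in control for the 9 genes at 1 FPKM or more (log axis); right, the same ratio of CDK6 relative to each other gene, from counts. Lines are exact 95% counting intervals; CDK6 (2.02) lies apart from the other genes on the left, and all 8 pairs on the right lie above 1.

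The D cyclins differed little. CCND1, cyclin D1, on chromosome 11 (ENSG00000110092, 69641087 to 69654474, plus strand), had the highest FPKM of the 10 genes in both libraries, at 40.7 FPKM in GGT7 and 38.2 FPKM in control. The counts were 2946 and 3627, and the ratio was 1.06 (1.01 to 1.12), an interval just above 1. CCND1 shares 497 exonic bases, 10.3% of its total, with ORAOV1 on the opposite strand. CCND3, cyclin D3, on chromosome 6 (ENSG00000112576, 41934933 to 42050357, minus strand), was at 5.24 FPKM in GGT7 and 4.63 FPKM in control, from 813 and 942 counts. Its ratio of 1.13 (1.03 to 1.24) was the largest after CDK6, and 25.4% of all genes had a log2 difference at least as high. CCND2, cyclin D2, on chromosome 12 (ENSG00000118971, 4273772 to 4305350, plus strand), had 3 counts in GGT7 and 0 in control, where an observed 0 is compatible with as many as 3 counts. No fold is given for it, since neither library exceeds that limit. CCND1 made up 88.5% of the summed D cyclin level in GGT7 and 89.2% in control, and the sum was 46.0 FPKM in GGT7 and 42.8 FPKM in control. The ratio of CCND1 to CCND3 counts was 3.62 in GGT7 and 3.85 in control, 0.941-fold (0.846 to 1.05), an interval that includes 1.

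With the deposited lengths, the order of the levels differed between the libraries in the places of CDK6 and RB1. In GGT7 the order was CCND1, CDK6, RB1, CDKN1B, CDK2, CDK4, CCNE1, CCND3, CCNE2 and CCND2. In control RB1 (18.8 FPKM) and CDK6 (18.8 FPKM) stood level in the places after CCND1, and the rest followed in the same order. Neighbours whose counting intervals overlap were CDKN1B and CDK2 in both libraries, CCNE1 and CCND3 in GGT7, and RB1 and CDK6 in control. The order also depends on gene length. The length implied by the deposited FPKM was 1.11 to 2.94 times the exonic length of GENCODE 29 over the 9 genes, lowest for CDK6 and highest for CDK2. Per exonic kilobase CDK6 held rank 2 in GGT7 and rank 5 in control, behind CCND1, CDK2, RB1 and CDK4 in the control library. There the levels of RB1, CDK4 and CDK6 were close, at 23.3, 22.3 and 20.9. No counting intervals were computed on that scale, so the order of close levels is uncertain. By rank CCND3 and CCNE1 also changed places on that scale, with ranks 7 and 8 in GGT7 and ranks 8 and 7 in control. In control, however, they were close to a tie, at levels of 12.04 (CCND3, 942 counts) and 12.10 (CCNE1, 416 counts).

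The E cyclins and CDK2 lay at or slightly below the control level. CCNE1, cyclin E1, on chromosome 19 (ENSG00000105173, 29811898 to 29824308, plus strand), was at 5.52 FPKM in GGT7 and 6.35 FPKM in control, from 276 and 416 counts. Its ratio of 0.869 (0.744 to 1.01) was the lowest of the 9 genes, with an interval that includes 1. CCNE2, cyclin E2 (ENSG00000175305), was at 3.56 FPKM in GGT7 and 3.54 FPKM in control, a ratio of 1.00 (0.854 to 1.18). Its value is uncertain, because 1629 of its exonic bases, 37.0% of the total, lie opposite exons of INTS8, which was at 5.73 FPKM in GGT7 and 6.82 FPKM in control. The ratio of CCNE1 to CCNE2 counts was 1.03 in GGT7 and 1.19 in control, 0.866-fold (0.691 to 1.09). CDK2, the partner of the E cyclins, on chromosome 12 (ENSG00000123374, 55966769 to 55972784, plus strand), was at 11.6 FPKM in GGT7 and 12.3 FPKM in control, from 1361 and 1898 counts. The ratio of 0.940 (0.876 to 1.01) also includes 1. On the opposite strand, 565 of the 3894 exonic bases of CDK2 are shared with an antisense gene and 89 with PMEL. The summed E cyclin level was 9.08 FPKM in GGT7 and 9.90 FPKM in control.

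The inhibitor and the substrate were close to level. CDKN1B, which encodes p27, on chromosome 12 (ENSG00000111276, 12715058 to 12722371, plus strand), had 565 counts and 12.7 FPKM in GGT7 and 723 counts and 12.4 FPKM in control. Its ratio was 1.02 (0.916 to 1.14). Relative to CDK2 it was 1.09-fold higher in GGT7, with an interval of 0.955 to 1.24 that includes 1. RB1, on chromosome 13 (ENSG00000139687, 48303726 to 48599436, plus strand), had 1629 counts and 19.9 FPKM in GGT7 and 2023 counts and 18.8 FPKM in control, a ratio of 1.06 (0.988 to 1.13). The other pocket protein genes were similar: RBL1 (p107) was at 10.5 FPKM in GGT7 and 10.6 FPKM in control, and RBL2 (p130) at 10.8 FPKM in GGT7 and 10.3 FPKM in control. RBL1 was just below 0 and changes side under DESeq2, upper quartile or median ratio scaling. RNA levels show neither the amount of these proteins nor the phosphorylation of RB1, which were not measured here.

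**Figure D3:**
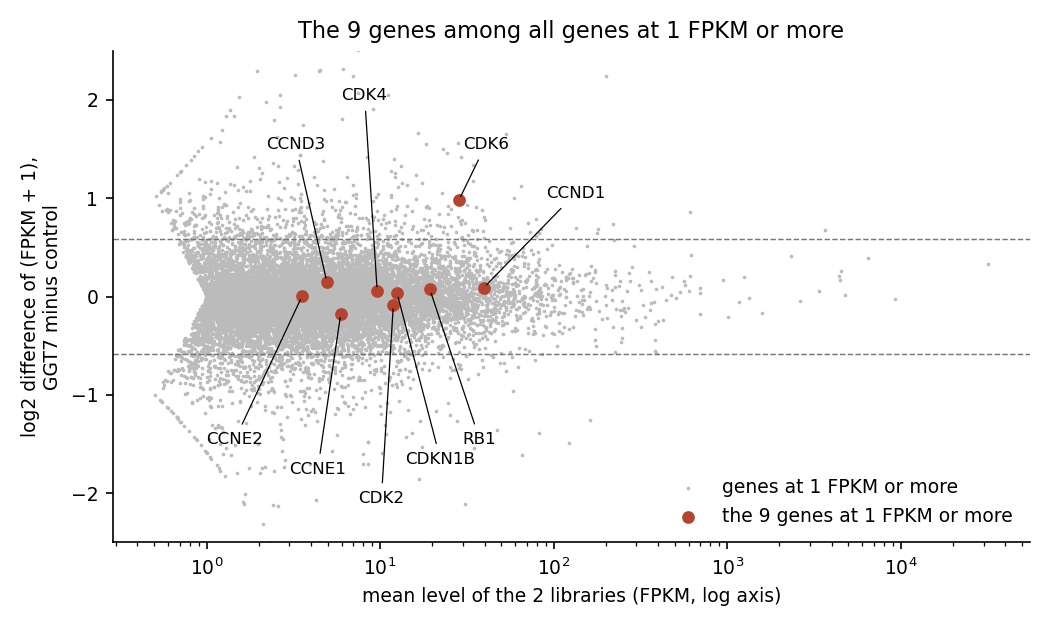
Log2 difference of (FPKM + 1), GGT7 minus control, against the mean level of both libraries (log axis) for 14215 genes at 1 FPKM or more, with the 9 genes marked; dashed lines are 1.5-fold. CDK6 (0.98) lies above the upper line, the other 8 lie between the lines, and 12 genes lie beyond the axis.

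Other inhibitors of the G1 kinases moved in no common direction. Of the 4 INK4 genes, 3 were below 0 and 1 above, under each library scaling, and all were within 1.5-fold, with a median log2 difference of -0.23 beside -0.03 over all genes. CDKN2A, whose locus encodes p16 and ARF, was the highest at 7.57 FPKM in GGT7 and 6.31 FPKM in control, 1.20-fold higher (1.08 to 1.33), and it shares exonic bases with an antisense gene. CDKN2D (p19) was the lowest, with only 27 counts in GGT7 and 50 in control, and its interval includes 1. CDKN2C (p18) was at 8.21 FPKM in GGT7 and 10.1 FPKM in control, 1.23-fold lower (1.10 to 1.39). Among the 3 CIP/KIP genes CDKN1C (p57) was 1.58-fold higher (1.37 to 1.81), at 6.76 FPKM in GGT7 and 4.29 FPKM in control, short of 1.5-fold once 1 is added to each FPKM, though past it under upper quartile scaling. The p21 gene CDKN1A was at 20.7 FPKM in GGT7 and 20.5 FPKM in control.

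Among E2F and DP genes, E2F3 had nearly the same difference as CDK6. E2F3, an activator of the S phase genes and a partner of RB1, had 948 counts and 7.29 FPKM in GGT7 and 546 counts and 3.20 FPKM in control, 2.28-fold higher (2.05 to 2.53), a log2 difference of 0.98. It was the gene nearest to CDK6 among those at 5 FPKM or more in the lists examined, over 2 libraries. The next were CDKN1C (0.55) and GSK3B, a kinase that marks cyclin D1 for degradation (0.42). With only 2 libraries this likeness is a likeness of 1 difference. Relative to RB1 counts, E2F3 was 2.16-fold higher in GGT7 (1.90 to 2.45). Of the 10 E2F and DP genes, 6 were above 0 and 4 below, and E2F3 was the 1 past 1.5-fold on the log2(FPKM + 1) scale, with a list median of 0.05. E2F1 was level at 40.3 FPKM in GGT7 and 39.9 FPKM in control. E2F2 and E2F8 were 1.25-fold (1.13 to 1.38) and 1.29-fold (1.10 to 1.51) higher, and E2F6, a repressor of the family, was the lowest at 0.937 FPKM in GGT7 and 1.42 FPKM in control, 1.52-fold lower in FPKM (1.17 to 1.98). The genes of the MuvB core and MYBL2 (B-MYB) were all within 1.5-fold, with a median of 0.08 over 6 genes. They ran from LIN9 at 1.19-fold lower (1.05 to 1.34) to LIN37 at 1.15-fold higher (0.842 to 1.57), which overlaps other genes.

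The genes that activate or degrade the G1 machinery included 1 past 1.5-fold. SKP2, which recruits p27 to a ubiquitin ligase for degradation, had 1179 counts and 12.9 FPKM in GGT7 and 2652 counts and 22.1 FPKM in control, 1.72-fold lower (1.60 to 1.84). In the same libraries CDKN1B RNA was 1.02-fold of control, so that the ratio of SKP2 to CDKN1B counts was 2.09 in GGT7 and 3.67 in control. CKS1B, the cofactor of SKP2 on p27, was at 3.25 FPKM in GGT7 and 3.42 FPKM in control. Of the 16 ubiquitin ligase genes, 12 were below 0 (11 under upper quartile or median ratio scaling), beside 7785 of all 14215 genes, 15 were within 1.5-fold and the median was -0.07; CUL4B was the highest, 1.12-fold (1.04 to 1.20). The 8 genes of the CDK-activating kinase, the CDC25 phosphatases and the WEE1 kinases were all within 1.5-fold, with a median of -0.02 that is slightly above 0 under upper quartile or median ratio scaling. Their ends were CDK7, 1.16-fold higher (0.997 to 1.35), with a pseudogene copy, and CDC25C, 1.45-fold lower (1.17 to 1.81), which overlaps another gene.

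Upstream regulators of CCND1 and CDKN1B held the widest differences. MYC had 884 counts and 9.58 FPKM in GGT7 and 2951 counts and 24.4 FPKM in control, 2.55-fold lower (2.36 to 2.75). JUND, a subunit of AP-1, was 2.39-fold lower (2.12 to 2.70), at 15.0 FPKM in GGT7 and 35.8 FPKM in control. These were the 2 genes of all lists past 2-fold on the log2(FPKM + 1) scale. At the other end TCF7L2, a nuclear partner of beta-catenin, was 1.80-fold higher (1.52 to 2.13), at 2.59 FPKM in GGT7 and 1.44 FPKM in control. The FOXO genes, whose products are known to activate CDKN1B, were slightly higher: FOXO1 1.16-fold (1.06 to 1.28), FOXO3 1.24-fold (1.13 to 1.35) and FOXO4 1.20-fold (0.996 to 1.46). Of the 18 upstream genes, 9 were above 0 and 9 below, with a median of 0.04.

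Genes known as E2F targets at the G1/S transition were spread on both sides of 0. Of 29, 27 were within 1.5-fold, 11 were above 0 and 18 below, and the median was -0.04. Under upper quartile scaling 15 were above 0 and 14 below, so no direction of the list holds across scalings. HELLS, a chromatin remodeller, was 1.68-fold lower (1.59 to 1.79), at 12.0 FPKM in GGT7 and 20.2 FPKM in control, and shares 438 exonic bases with a neighbouring gene. CCNA2, cyclin A2, was at 23.8 FPKM in GGT7 and 25.1 FPKM in control, and PCNA, the replication clamp, at 110 FPKM in GGT7 and 108 FPKM in control.

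**Figure D4:**
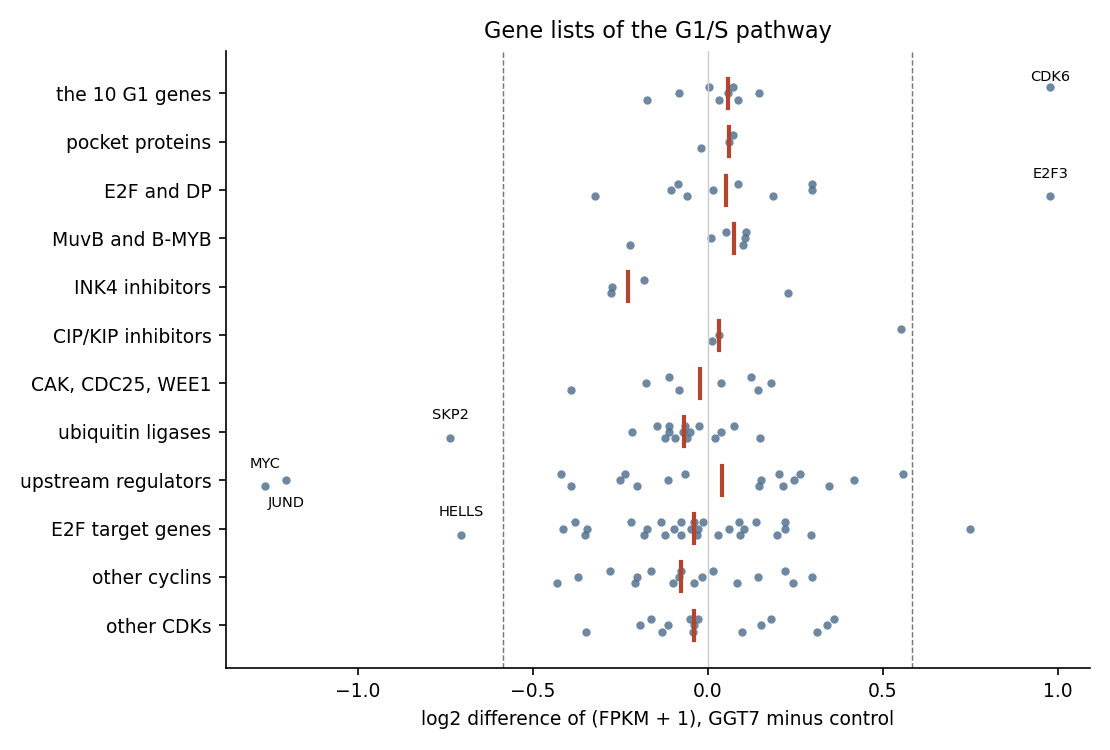
Log2 difference of (FPKM + 1), GGT7 minus control (horizontal axis), for genes at 1 FPKM or more in the 10 G1 genes and 11 further lists; each point is a gene, bars are list medians and dashed lines mark 1.5-fold. Medians lie between -0.23 and 0.08, and the labelled genes (CDK6, E2F3, SKP2, MYC, JUND and HELLS) lie past 1.5-fold.

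None of the other cyclins or CDKs differed by 1.5-fold on the log2(FPKM + 1) scale. Of 17 other cyclin genes at 1 FPKM or more, the extremes were CCNK, 1.28-fold higher (1.15 to 1.42), and CCNT2, 1.69-fold lower in FPKM (1.42 to 2.01) at the low levels of 1.01 FPKM in GGT7 and 1.71 FPKM in control. CCNK and CCNT2 encode cyclins of the transcription kinases, and both overlap another gene on the opposite strand. For CCNK the overlap with CCDC85C covers 4893 of 8220 exonic bases, so its value is uncertain. For CCNT2 the overlap covers 148 of 9081. Of 15 other CDK genes, CDK17 was the highest, at 22.5 FPKM in GGT7 and 17.3 FPKM in control (interval of the ratio 1.22 to 1.38), and CDK5 the lowest at 1.32-fold lower (1.11 to 1.57); CDK5 overlaps another gene. At 5 FPKM or more the medians of the lists were -0.01 for the cyclins and 0.04 for the CDKs, so the sign for the CDKs depends on the filter. At 1 FPKM or more they were -0.08 for the cyclins (6 above 0, 11 below) and -0.04 for the CDKs (6 above 0, 9 below), and 1 or 2 genes of each change side under upper quartile scaling.

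The genes next to CDK6 on chromosome 7 lay on both sides of 0. Within 5 megabases of its start, 33 other protein-coding genes were at 1 FPKM or more, 18 of them above 0 and 15 below. Their median log2 difference was 0.10, beside -0.03 over all genes, of which 45.2% were above 0. The nearest on either side were FAM133B, at 1.28 FPKM in GGT7 and 0.814 FPKM in control (1.58-fold, 1.20 to 2.07), and SAMD9, at 6.09 FPKM in GGT7 and 7.44 FPKM in control (0.819-fold, 0.758 to 0.883). CDK14, another kinase of the family in the window, was 1.32-fold higher (1.21 to 1.45). STEAP1 and STEAP4, genes of the same family, were the only ones past 1.5-fold on the log2(FPKM + 1) scale and lay in opposite directions. STEAP1 had 55 counts in GGT7 and 16 in control, and STEAP4 had 795 counts in GGT7 and 2190 in control. The window was chosen after the value of CDK6 was known. CDK6 also has the longest transcript of the 9 genes, 11612 bases, and the 500 genes nearest to it in length had a median log2 difference of -0.04.

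**Figure D5:**
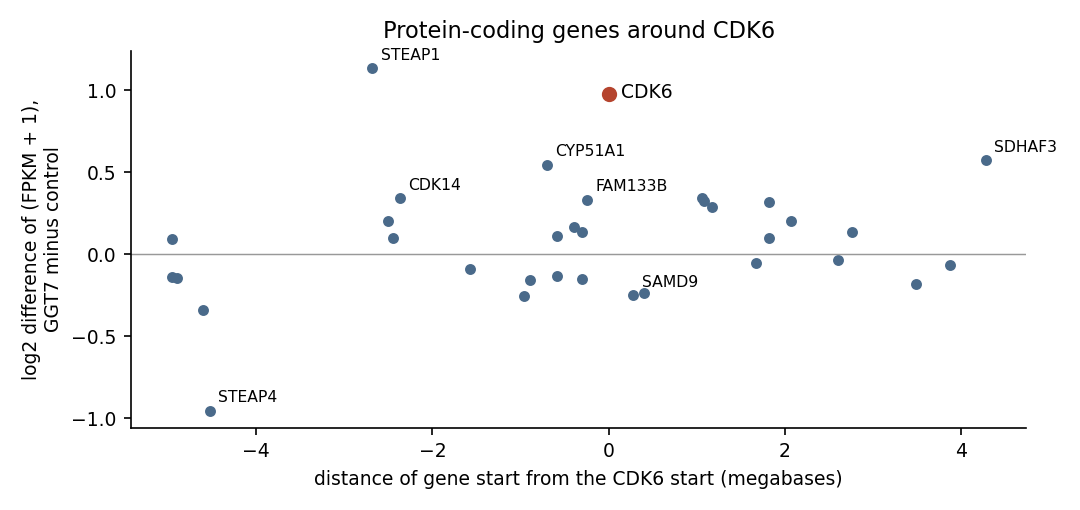
Log2 difference of (FPKM + 1), GGT7 minus control, of protein-coding genes at 1 FPKM or more against the distance of their start from the CDK6 start in megabases. Of the 33 neighbours, 18 lie above 0 and 15 below, while 45.2% of all genes lie above 0. STEAP1 (1.14) is the one neighbour that lies higher than CDK6 (0.98).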

How the data were processed

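Libraries followed standard Illumina protocols with 1 ug of total RNA as input, per the labels' protocols. HISAT2, StringTie 1.3.0, edgeR and the GRCh38 build are named in the submitters' processing notes; how reads were assigned to genes, and whether by strand, is not stated there. Per the file headers, the deposited table holds a count and an FPKM value for each gene in either library. The deposited counts were entered as estimated counts. The deposited GGT7 FPKM column was recorded under the unit score, because 1 broken line holds a cell below 0; 2 of 23378 lines, the broken one included, were left out, which left 23376 rows. The counts in these rows are whole numbers. Between libraries the FPKM per count differed by the ratio of the totals, 1.31.

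Rows sharing a symbol were summed. Genes entered counts and medians if they had at least 1 FPKM in either library. Intervals of ratios are Clopper-Pearson given the total, those of levels exact Poisson, and those of gene pairs exact conditional. TMM factors came from edgeR 4.0.16 and size factors from DESeq2 1.42.0, without a test. Positions and lengths are from GENCODE 29, promoters from RefSeq for 6 of the 10 genes, and copies from BLAST 2.17.0. The GC and length trend was fitted by lowess (statsmodels 0.14.6, span 0.3).

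The members and lists were chosen with earlier results of these data known. Named genes are the members, GGT7, the extremes of each list, list genes past 2-fold and the 3 nearest to CDK6; the others, such as CDKN2C, E2F1, CDKN1A and PCNA, were chosen after their values were seen. One gene that this rule names is not reported here.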

Additional observations from a re-analysis of the deposited data

How the results depend on the processing

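The log2 difference of CDK6 was 0.98 and ran from 0.85 to 1.02 over pseudocounts of 0.1 and 5, the 4 library scalings, rows as deposited and, chosen after seeing the data, removal of the GC and length trend. The lowest value was at a pseudocount of 5, which pulls every gene toward 0. The other 8 genes at 1 FPKM or more lay between -0.20 and 0.18 throughout, and 7 of the 9 genes were above 0 under each scaling, beside 45.2% of all genes as deposited and 50.6% under upper quartile scaling. CDK6 was the 1 gene past 1.5-fold under every filter, pseudocount and scaling. Under a 2-fold rule in the main setting the number was 0. CDK6 did pass 2-fold with a pseudocount of 0.1 (log2 difference 1.01) and with the GC and length trend removed (1.01). It also did under DESeq2 (1.003), upper quartile (1.02) and median ratio scaling (1.02), but not under TMM scaling (0.99). Median differences of the pocket proteins were 0.084 with DESeq2 size factors, 0.099 with upper quartile scaling and 0.095 with the median ratio, against 0.061, a shift made by the scaling itself. With GENCODE 29 exonic lengths, chosen after seeing the data, CDK6 made up 64.5% of the CDK4 and CDK6 level in GGT7 and 48.4% in control. Of all genes, 554 were 1.5-fold or more higher and 706 lower; with a pseudocount of 0.1 these were 1013 and 1294, with a pseudocount of 5 they were 131 and 123, and at 5 FPKM or more 250 and 257. The scalings moved the balance: 580 and 679 with TMM, 606 and 654 with DESeq2 size factors, 641 and 619 with upper quartile scaling and 634 and 624 with the median ratio. The median of the other CDK genes turned to 0.04 at 5 FPKM or more, against -0.04, and that of the CDK-activating kinase, CDC25 and WEE1 genes to 0.02, against -0.02. No paired analysis was possible because each group has 1 library.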
